A study of Mus musculus with 10 samples.

Results

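Appetitive cells were hippocampal cells of male mice tagged with EYFP while the mice met a female, and they were compared with neutral cells, tagged while mice explored the same conditioning cage with neither a positive nor a negative stimulus. All 5 libraries of these groups in the series of 10 were taken by their labels, 2 appetitive and 3 neutral, and the comparison covered every gene. The series holds 2 further tagged libraries from an aversive group, whose male mice received 4 foot shocks of 1.5 mA lasting 2 s each, and 3 mock libraries from male mice kept in the home cage. Tagging rested on a c-Fos promoter that drives a tetracycline transactivator, which in turn drives a ChR2-EYFP transgene when doxycycline is absent, so EYFP reports recent c-Fos activity in infected cells rather than a cell type.

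The labels give the mice of all groups as 5 weeks old and say that 8 mice were pooled per condition, while the study's methods describe mock cells as untagged controls from fewer mice. The female exposure of the appetitive group lasted 1 h by the labels, and the study's methods give a longer exposure. The sources used here do not say if each library had its own pool of mice, so the tests below measure the spread between libraries, which may be technical. The neutral libraries were made with another kit, SMART-Seq v4 Ultra Low Input RNA, and were read as 100 bp pairs on a NovaSeq 6000, whereas appetitive, aversive and mock libraries were made with the SMARTerUltra-lowPOLYA-V4 kit and read as single 40 bp reads on a HiSeq 2500. The labels also call the neutral RNA total RNA. Every neutral library falls in one of these sets and every other library in the other. Kit, sequencer and neutral experience thus cannot be told apart in any difference between appetitive and neutral cells. No difference from neutral cells can be repeated within a kit. Aversive and mock libraries share the kit of the appetitive libraries, and their values are given for most of the genes and lists described.

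The hippocampus holds excitatory and inhibitory neurons together with astrocytes, which clear glutamate from synapses, oligodendrocytes, which wrap axons in myelin, and microglia, the resident immune cells that answer injury with chemokines. The lateral ventricle beside it contains the choroid plexus, an epithelium that secretes cerebrospinal fluid, and a lining of ependymal cells that move this fluid with motile cilia. A motile cilium is built on an axoneme of microtubules with tektins, radial spokes and other fixed parts, and its genes are largely silent in neurons and astrocytes. Tissue that is dissociated and sorted can carry RNA from any of these cells.

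Total counts were 26647573 and 16968588 in the appetitive libraries and 60077131 to 67650693 in the neutral libraries, against 16968588 to 67650693 over the whole series. Fewer genes had a count in the appetitive libraries, 14144 and 14658, than in the neutral libraries, 18677 to 19902. Levels are given as CPM, counts scaled to 1000000 per library after TMM normalization, whose factor was 0.48 for appetitive replicate 1 and 1.13 for appetitive replicate 2. Appetitive replicate 1 stood apart, since 30.8% of its counts fell on the myelin gene Mbp against 0.983% in appetitive replicate 2 and 0.601% to 1.84% in neutral libraries, and its 10 most abundant genes took 53.2% of counts against 13.8%. Spearman's rho across genes, which are not independent replicates, was 0.606 between the appetitive libraries, 0.766 to 0.864 among neutral libraries and 0.521 to 0.628 between the groups. Neuronal markers were uneven in the appetitive libraries. The 10 tested markers of pyramidal neurons summed to 652 and 28.7 CPM in appetitive and 29.1, 57.9 and 72.1 CPM in neutral libraries, and Nrgn alone made up 515 and 21.3 CPM of the appetitive sums. The 10 markers of all neurons summed to 710.3 and 198 CPM in appetitive and 76, 126 and 80.9 CPM in neutral libraries. Snap25 alone made up most of these appetitive sums. Without overlap 2 of the 10 lay higher and 3 lower, against 11.4% and 27.2% of all tested genes. Their median log2 fold change was 0.41, and -1.30 without appetitive replicate 1. Several defining markers were low in both groups. Slc17a7, the vesicular glutamate transporter of excitatory neurons, had 0.704 and 0.629 CPM in appetitive, 0.0158, 0.0115 and 5.55 CPM in neutral, 16.8 and 25.7 CPM in aversive and 4.95 to 27.9 CPM in mock libraries. Neurod6, a transcription factor of pyramidal neurons, had 0 and 0 counts in appetitive and 14, 1 and 1 counts in neutral libraries. The neuronal splicing factor gene Rbfox3 had 1.17 and 0.105 CPM in appetitive and 0.536, 0.173 and 5.28 CPM in neutral libraries. Fos itself did not pass the test, although both appetitive values lay above the neutral ones, with 1054 and 1530.3 CPM in appetitive and 1051, 801 and 234 CPM in neutral libraries (edgeR adjusted p = 0.497).

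Chemokine and astrocyte genes stood higher, and genes of cilia, choroid plexus and epithelia lower, in appetitive than in neutral cells. The quasi-likelihood F test of edgeR was run on all 10 libraries. Of 19754 genes tested, 1218 (6.17%) had an adjusted p under 0.05. In appetitive cells 185 of them were higher (0.937% of tested genes) and 1033 lower (5.23%), of which 162 and 1013 were protein-coding. The study's own threshold, an adjusted p under 1e-05 with more than a 4-fold difference, was passed by 0 genes, while 5779 genes had an unadjusted p under 0.05 and DESeq2's Wald test on the 10 libraries put 1333 genes past that threshold. The number of calls depended on the libraries in the fit. With the 5 appetitive and neutral libraries fitted alone edgeR called 0 genes (4080 with an unadjusted p under 0.05 and a smallest adjusted p of 0.0951), and without the mock libraries it called 0 (3814 unadjusted, smallest adjusted p 0.0824), so the edgeR calls below hold only with the mock libraries in the fit. Leaving out single libraries gave from 67 calls without neutral replicate 3 to 2661 without aversive replicate 3. Without appetitive replicate 1, the myelin-rich library, 1097 genes were called, 583 of them among the 1218. Over all tested genes the log2 fold change, appetitive minus neutral, had a median of -0.91 with TMM normalization, -0.63 with DESeq2's size factors and -1.45 with library size alone, and medians of gene groups below stand against the first of these. Counts of called genes in the groups below stand against the 0.937% called higher and 5.23% called lower over all tested genes. In bulk libraries fewer cells of a type and less RNA per cell cannot be told apart.

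**Figure D1:**
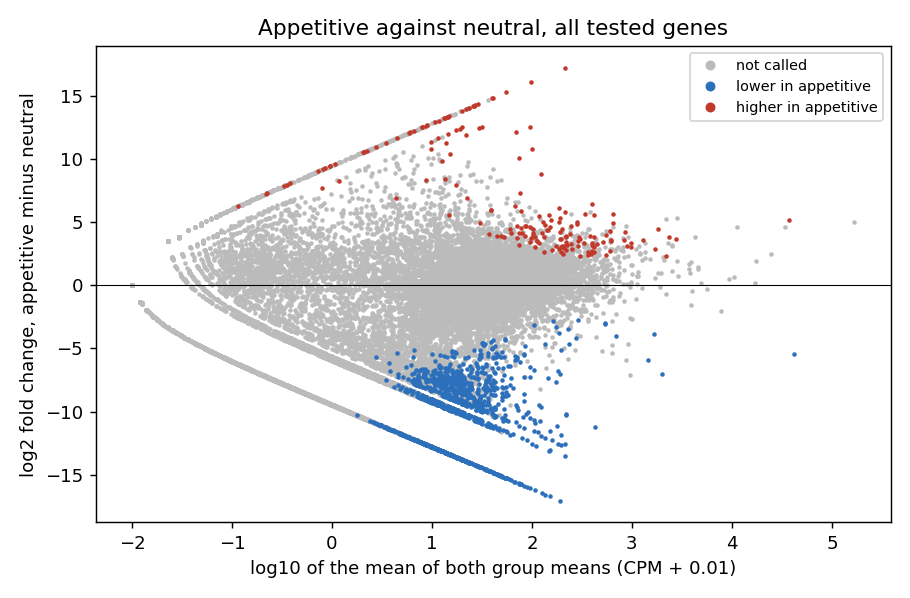
Each point is 1 of the 19754 tested genes, placed by the log10 of the mean of its appetitive and neutral levels (CPM + 0.01) and by its log2 fold change (appetitive minus neutral). The 1033 genes called lower lie at moderate and high levels, and the 185 called higher are fewer.

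The order of all 10 libraries differed between genes called higher and lower. Of the 1033 genes lower in appetitive cells, 843 (81.6%) had both appetitive libraries below the other 8, an order found in 10.8% of all tested genes, and 327 (31.7%) had all 3 neutral libraries above the other 7, found in 6.29%. Both orders held together in 205 and neither in 68. The median of the group means over these 1033 genes was 0.052 CPM in appetitive, 35.7 CPM in neutral, 14.0 CPM in aversive and 16.2 CPM in mock cells, so the appetitive libraries were the ones near 0. Among the 185 genes higher in appetitive cells the neutral libraries were more often at the extreme, with all 3 neutral libraries below the other 7 in 128 (69.2%, against 2.96% of all tested genes) and both appetitive libraries above the other 8 in 58 (31.4%, against 4.08%). Their medians were 192 CPM in appetitive, 7.64 CPM in neutral, 99.7 CPM in aversive and 71.2 CPM in mock cells. The libraries of the compared groups did not overlap for 165 of the 185 and for all 1033, and over all tested genes 11.4% lay above and 27.2% below without overlap. These orders use the same values as the calls and are descriptions.

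Chemokines and cytokines led the genes that were higher in appetitive cells. Of 18 listed genes, all tested, 5 were higher and 0 lower, and the median log2 fold change was 5.15, or 3.28 with genes at 0 in a group set to their bound, against -0.91 and -0.42 over all tested genes. The list summed to 2025 and 833 CPM in appetitive libraries, 122, 188 and 175 CPM in neutral, 3879 and 494 CPM in aversive and 328 to 2555 CPM in mock libraries. Ccl4 (ENSMUSG00000018930, chromosome 11 from 83662584 to 83664683) encodes the chemokine MIP-1 beta, which draws monocytes and T cells, and had 583 and 267 CPM in the appetitive libraries and 0 counts in each neutral library. The difference was at least 8983-fold (adjusted p = 0.00993), a bound set by 3 counts in a neutral library. Aversive libraries held 654 and 71.8 CPM and mock libraries 28.6 to 235 CPM, so every library other than the neutral ones carried it. Ccl3 (ENSMUSG00000000982, chromosome 11 from 83647844 to 83649355), which encodes the related MIP-1 alpha and is a neighbour of Ccl4 on the chromosome, had 274 and 119 CPM and again 0 counts in neutral libraries (at least 4153-fold, adjusted p = 0.00993). It had 292 and 104 CPM in aversive and 11.4 to 163 CPM in mock libraries. Ccl12 (ENSMUSG00000035352, chromosome 11 from 82101845 to 82103400), a monocyte chemoattractant, had 91.6 and 71.1 CPM and 0 counts in neutral libraries (at least 1719-fold, adjusted p = 0.00993). Aversive libraries held 198 and 23.8 CPM and mock libraries 6.13 to 19.2 CPM. These 3 genes thus had the same order, neutral at 0 and all other groups above it.

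Tnf, an inflammatory cytokine of microglia and macrophages, had 36.1 and 3.25 CPM in appetitive and 0, 0 and 0.0257 CPM in neutral libraries (adjusted p = 0.0191). It had 181 and 27.9 CPM in aversive and 5.61 to 42.2 CPM in mock libraries. Ccl7 also passed the test (adjusted p = 0.0417) but at very few reads, 2 and 5 counts in appetitive and 0 in each neutral library, while aversive libraries had 55.3 and 30.6 CPM. When single libraries were left out 3 to 6 members were called higher. Without appetitive replicate 1 there were 5, and the median log2 fold change of the list fell to 1.83.

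Astrocyte genes were higher in appetitive cells. Of 14 astrocyte markers 6 were higher and 0 lower, against 0.937% and 5.23% of all tested genes. Their median log2 fold change was 3.88, against -0.91 over all tested genes. For 10 of the 14 both appetitive libraries lay above every neutral library and for 1 below, against 11.4% and 27.2% of all tested genes. The 14 markers summed to 8728 and 4461 CPM in appetitive, 499, 533 and 503 CPM in neutral, 8611 and 9054 CPM in aversive and 6135 to 18903 CPM in mock libraries, so neutral libraries were the low ones. Slc1a2 (ENSMUSG00000005089, chromosome 2 from 102658659 to 102790784), the main glutamate transporter of astrocytes, had 765 and 803 CPM in appetitive and 2.71, 6.31 and 17.9 CPM in neutral libraries, which is 6.45 on the log2 scale (SE 0.90, adjusted p = 0.0102). It overlaps Gm13872 on the other strand, from which unstranded counts cannot separate it, and had 1167 and 2105 CPM in aversive and 525 to 1395 CPM in mock libraries. Its partner transporter gene Slc1a3 had 448 and 979 CPM against 18.1, 89 and 41.5 CPM (log2 fold change 3.85, SE 0.80, adjusted p = 0.0254). Aversive libraries held 1190.2 and 2097 CPM and mock libraries 1292 to 4024 CPM. Ntsr2, a neurotensin receptor of astrocytes, had 574 and 767 CPM against 3.23, 26.1 and 11 CPM (log2 fold change 5.64, SE 0.90, adjusted p = 0.0143). It had 1017 and 866 CPM in aversive and 362 to 1076 CPM in mock libraries. For these 3 genes both appetitive libraries lay above all neutral libraries.

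Aldoc, a glycolytic enzyme enriched in astrocytes, had 2235 and 860.3 CPM in appetitive and 114, 141 and 136 CPM in neutral libraries (log2 fold change 3.57, SE 0.67, adjusted p = 0.0191). Aversive libraries held 1678 and 1493 CPM and mock libraries 1279 to 5349 CPM. The lipid enzyme gene Acsbg1 and the calcium-binding protein gene S100b completed the list of called markers, with log2 fold changes of 5.02 and 5.62 (adjusted p = 0.0193 and 0.0242), and for both the first appetitive library was the higher, 632 and 98.4 CPM and 2299 and 238 CPM. Beside the list, F3 (ENSMUSG00000028128, chromosome 3 from 121723537 to 121735048), which encodes tissue factor, the starter of coagulation that astrocytes express, had 612 and 237 CPM against 4.18, 11.4 and 7.36 CPM (log2 fold change 5.80, SE 0.77, adjusted p = 0.00993). It had 588 and 415 CPM in aversive and 193 to 457 CPM in mock libraries. Etnppl, a phospholyase of astrocytes, had 68.7 and 8.49 CPM in appetitive libraries and a single count over the neutral libraries, a ratio of 8787 (95% counting interval 1577 to 347064), and 53.8 and 36.7 CPM in aversive and 28.2 to 38.2 CPM in mock libraries. Papss2, which makes the sulfate donor PAPS, had 25.7 and 16.9 CPM and 0 counts in the neutral libraries, at least 450.0-fold (adjusted p = 0.0124). Aversive libraries held 5.6 and 14.1 CPM and mock libraries 22.4 to 64.9 CPM. Without appetitive replicate 1 the astrocyte list had 3 higher members and a median log2 fold change of 3.07, and over all single libraries left out it had 1 to 7.

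**Figure D2:**
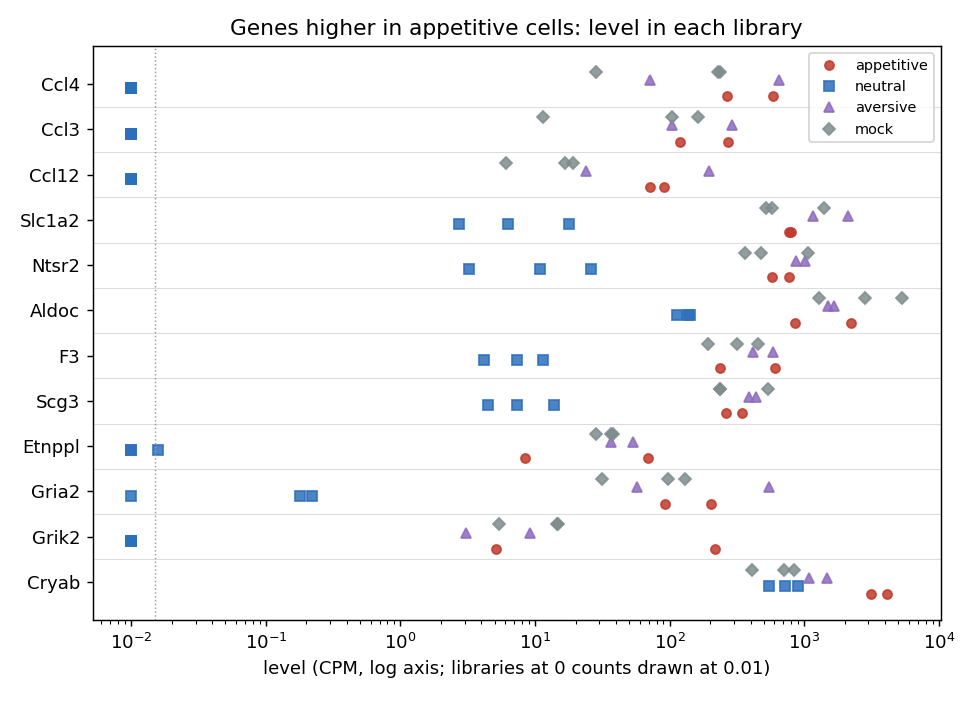
Points are the level of 12 genes in each library (CPM on a log axis), with appetitive, neutral, aversive and mock libraries marked by colour and shape and libraries at 0 counts drawn at 0.01. For Ccl4, Ccl3 and Ccl12 the neutral libraries sit at 0 while all other libraries lie above 6 CPM.

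Oligodendrocyte and microglia markers stood in the same direction with wider spread. Of 12 oligodendrocyte markers 2 were higher, with a median log2 fold change of 3.38, against -0.91 over all tested genes, and all 12 had positive values. They summed to 807706 and 92948 CPM in appetitive, 24193, 37282 and 7603 CPM in neutral, 412168 and 27343 CPM in aversive and 52321 to 367370.3 CPM in mock libraries, and the larger appetitive value was mostly Mbp at 642740.0 and 8739.7 CPM. Mbp, myelin basic protein, did not pass the test (log2 fold change 5.03, adjusted p = 0.0821), and its log2 fold change was -0.27 without appetitive replicate 1. Ugt8a, the enzyme that makes the myelin lipid galactosylceramide, was even between the appetitive libraries, 674 and 886 CPM, against 20.7, 122 and 23.9 CPM (log2 fold change 3.81, SE 0.85, adjusted p = 0.0317). It had 318 and 273 CPM in aversive and 185 to 449 CPM in mock libraries. Aspa, which breaks down N-acetylaspartate in oligodendrocytes, reached 552 and 1354 CPM against 43.2, 200.1 and 19 CPM (adjusted p = 0.05), just under the threshold. Aversive libraries held 225 and 198 CPM and mock libraries 77.3 to 134 CPM. For microglia 1 of 15 markers was higher, and the median log2 fold change was 3.33, against -0.91 over all tested genes. Both appetitive libraries lay above every neutral library for 13 of the 15, as for 11.4% of all tested genes. P2ry12, the ADP receptor of resting microglia, gave 646 and 145 CPM against 7.76, 45.9 and 31 CPM (adjusted p = 0.0569). It had 554 and 249 CPM in aversive and 186 to 1205 CPM in mock libraries. Without appetitive replicate 1 the higher counts were 1 for oligodendrocytes and 0 for microglia.

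**Figure D3:**
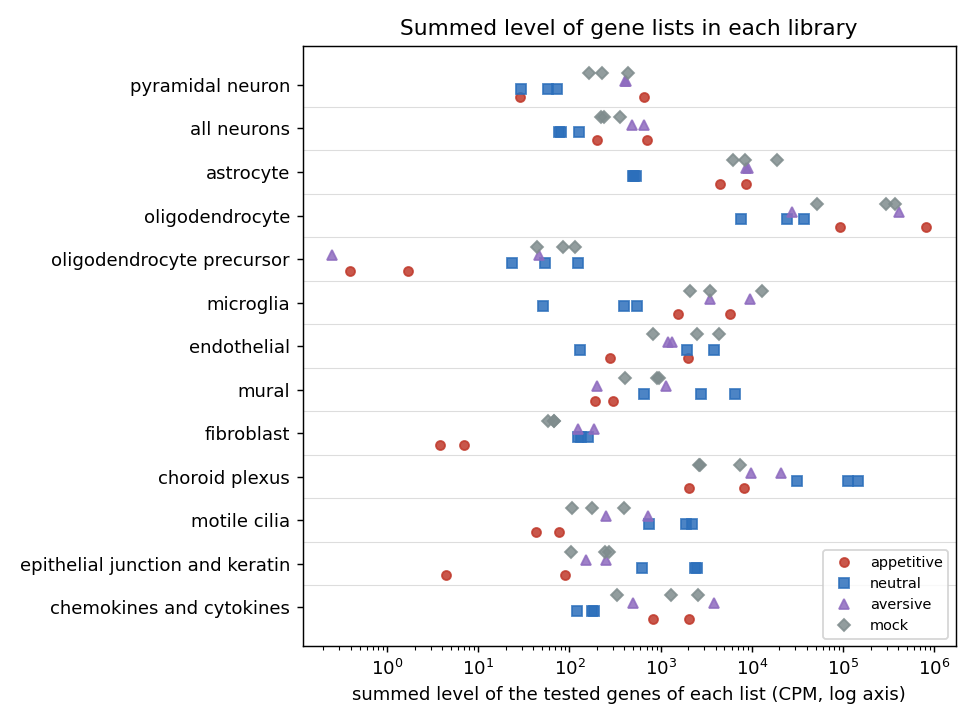
Each row is a gene list and each point the summed level of its tested genes in a library (CPM, log axis), by group. Astrocyte genes sum to 4461 CPM or more in every library but the neutral ones, which lie at 499 to 533 CPM, and choroid plexus, cilia and epithelial genes are highest in the neutral libraries.

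Genes for receptors and release at synapses moved in both directions. Among 9 AMPA and kainate receptor subunits, the fast glutamate receptors, 2 were higher, and the median log2 fold change was 3.56, against -0.91 over all tested genes. Gria2 (ENSMUSG00000033981, chromosome 3 from 80681450 to 80802835), the subunit that blocks calcium entry through AMPA receptors, had 204 and 91.8 CPM in appetitive and 0.221, 0 and 0.18 CPM in neutral libraries (log2 fold change 10.10, SE 1.71, adjusted p = 0.0173). Aversive libraries held 56.8 and 552 CPM and mock libraries 31.4 to 129.9 CPM. Grik2 (ENSMUSG00000056073, chromosome 10 from 49094833 to 49788766), a kainate receptor subunit, had 217 and 5.13 CPM and 0 counts in the neutral libraries, at least 2344-fold above them (adjusted p = 0.0173). The first appetitive library carried most of that bound, and aversive and mock libraries held 3.05 and 9.24 CPM and 5.36 to 14.7 CPM. Without appetitive replicate 1 both subunits were still called and the list's median fell to -1.49.

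NMDA receptor subunits gave 0 calls in either direction of 6 tested, and metabotropic glutamate receptors 0 of 7. The potassium channel gene Kcnc4 had 44 and 2.62 CPM and 0 counts in neutral libraries, at least 493-fold (adjusted p = 0.0191). It had 10.2 and 48.6 CPM in aversive and 5.02 to 12 CPM in mock libraries. Of 16 voltage-gated potassium channel genes it was the 1 called higher, and Kcnh1 was the 1 called lower, with 0 and 0 counts in appetitive and 121, 15.7 and 42.8 CPM in neutral libraries (adjusted p = 0.0353). Kcnh1 overlaps Hhat on the other strand. Snap25, a SNARE of synaptic vesicle fusion, had 577 and 154 CPM against 24.4, 15.1 and 21.2 CPM (log2 fold change 4.18, SE 0.86, adjusted p = 0.0245). Aversive libraries held 422 and 123 CPM and mock libraries 44.2 to 136 CPM. The opposite held for its fusion partner Stx1a, which had 0.0782 and 0.0524 CPM against 4.18, 9.1 and 9.25 CPM (adjusted p = 0.0334). It had 33.2 and 38.2 CPM in aversive and 7.8 to 14.5 CPM in mock libraries. Of 18 vesicle release genes 1 was higher and 2 lower, against 0.937% and 5.23% of all tested genes, and the median log2 fold change was 0.30. Nrgn, a calmodulin buffer of excitatory neurons, passed the test at 515 and 21.3 CPM against 10.8, 19.3 and 9.2 CPM (adjusted p = 0.0456), with most of its level in 1 library, and had 209 and 149.5 CPM in aversive and 16.5 to 49.3 CPM in mock libraries.

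Among 10 secretory granule genes 2 were higher and 0 lower, against 0.937% and 5.23% of all tested genes. The list as a whole was not raised evenly, with 5 of 10 log2 fold changes above 0 and a median of 0.21. In both appetitive libraries 6 of the 10 had 3 counts or fewer, and the median was -1.36 without appetitive replicate 1. Scg3, a granin that sorts cargo into granules and is also made by astrocytes, had 346 and 264 CPM in appetitive and 4.46, 7.36 and 13.9 CPM in neutral libraries (log2 fold change 5.15, SE 0.74, adjusted p = 0.0102), and 441 and 389 CPM in aversive and 238 to 541 CPM in mock libraries. Phactr3, a regulator of protein phosphatase 1 and actin, had 300.4 and 158 CPM against 6.5, 4.62 and 4.11 CPM (log2 fold change 5.49, SE 0.84, adjusted p = 0.0124). Aversive libraries held 89.4 and 121 CPM and mock libraries 40.7 to 155 CPM. Prox1, the transcription factor of dentate granule neurons, had 68.2 and 316 CPM and 3, 4 and 0 counts in neutral libraries, but also 0 and 108 CPM in aversive and 8.7 to 62.6 CPM in mock libraries (adjusted p = 0.0313). It was the only 1 of 4 tested dentate granule markers called, and 2 of the 4 had a log2 fold change above 0. The 4 markers summed to 68.6 and 332 CPM in appetitive and 18.5, 4.04 and 26.3 CPM in neutral libraries. Prox1 thus made up most of the appetitive sums and little of the neutral ones, and the other markers together did not follow it. Cryab, a small heat shock protein abundant in oligodendrocytes, had 3122 and 4122 CPM against 723, 895 and 547 CPM (log2 fold change 2.33, SE 0.51, adjusted p = 0.031), and both appetitive libraries also exceeded aversive and mock libraries, at 1483 and 1083 CPM and 412 to 838 CPM. Atf3, an early gene of cell stress, was the only 1 of 23 immediate early genes called, at 812 and 292 CPM against 11.1, 33.1 and 7.01 CPM (adjusted p = 0.0329). It had 1092 and 96.1 CPM in aversive and 200.1 to 956 CPM in mock libraries.

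Choroid plexus genes were lower in appetitive cells and highest in neutral ones. Of 11 markers 5 were lower and 0 higher, against 5.23% and 0.937% of all tested genes. The markers had a median log2 fold change of -5.52, against -0.91 over all tested genes. They summed to 2028 and 8181 CPM in appetitive, 147213, 30924 and 112419.9 CPM in neutral, 20704 and 9701 CPM in aversive and 2632 to 7353 CPM in mock libraries. Ttr, transthyretin, the thyroid hormone carrier that choroid plexus secretes in bulk, had 848 and 2897 CPM in appetitive and 128860.0, 20730.0 and 93601 CPM in neutral libraries (log2 fold change -5.44, SE 1.04, adjusted p = 0.021), with 13200.0 and 6793 CPM in aversive and 1066 to 3156 CPM in mock libraries, and took 13.6%, 2.65% and 11.6% of all neutral counts. Folr1, the folate receptor of the same epithelium, had 0.156 and 5.55 CPM against 511, 114 and 521 CPM (log2 fold change -7.05, SE 1.65, adjusted p = 0.0355). Aversive libraries held 111 and 42.2 CPM and mock libraries 14.5 to 54.5 CPM. The water channel gene Aqp1 had 0.156 and 0.0524 CPM against 90.9, 26.6 and 106 CPM and was near 0 in aversive libraries as well, 0.05 and 0.321 CPM, with 0.469 to 11.6 CPM in mock libraries. Clic6, a chloride channel protein, and Otx2, a transcription factor of choroid plexus, were the other two called, at adjusted p = 0.0404 and 0.0414, with 10 and 0 counts of Clic6 and 0 and 1 counts of Otx2 in the appetitive libraries. Neutral replicate 2 held the least of these genes among neutral libraries and still more than both appetitive libraries. Without appetitive replicate 1, 1 marker was called lower and the median was -4.95.

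Genes of epithelial junctions and keratins followed. Of 15 listed, 12 were tested, 5 were lower and 0 higher, with a median log2 fold change of -8.82, or -7.51 with genes at 0 set to their bound, against -0.91 and -0.42 over all tested genes. Krt18, a keratin of simple epithelia, had 1 and 0 counts in appetitive libraries and 639.7, 65.1 and 594 CPM in neutral libraries, a ratio of 13803 (95% counting interval 2477 to 545202) in favour of neutral cells. It had 54.2 and 59 CPM in aversive and 5.97 to 17.3 CPM in mock libraries. Spint2, an inhibitor of membrane serine proteases, had 0.626 and 0.105 CPM against 1277, 201 and 1088 CPM (log2 fold change -11.23, SE 1.50, adjusted p = 0.00993). Aversive libraries held 51.5 and 26.4 CPM and mock libraries 14.9 to 35.3 CPM. Perp, a desmosomal protein, had 0.235 and 0.105 CPM against 131, 159.7 and 253 CPM (log2 fold change -10.07, adjusted p = 0.00993). In aversive and mock libraries Perp held 71.2 and 44.7 CPM and 16.2 to 29.9 CPM, below the neutral and above the appetitive libraries. Cldn3, a tight junction claudin, was at 0 counts in both appetitive libraries, at least 175-fold below 56.2, 19.2 and 47.6 CPM in neutral libraries (adjusted p = 0.0239), and at 0 counts in both aversive libraries too. The lower calls ranged from 3 to 7 over single libraries left out.

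TRP channels gave 2 lower and 0 higher calls of 14 tested, against 5.23% and 0.937% of all tested genes. Their median log2 fold change was -7.17, or -3.22 with genes at 0 set to their bound, against -0.91 and -0.42 over all tested genes. In both appetitive libraries 10 of the 14 had 3 counts or fewer, as had 7706 of the 19754 tested genes. Trpv4 (ENSMUSG00000014158, chromosome 5 from 114622152 to 114658421), a cation channel that opens with osmotic stretch and warmth and is abundant in choroid plexus, had 0 and 2 counts in appetitive libraries against 582, 147 and 437 CPM in neutral libraries, a ratio of 6197 (95% counting interval 1716 to 51174) (adjusted p = 0.00993). Aversive libraries held 4.85 and 7.03 CPM and mock libraries 10.1 to 30.7 CPM. Pkd2, a channel of primary cilia, had 0 and 2 counts in appetitive libraries and similar levels in the rest, 32.3, 63.3 and 24.1 CPM in neutral, 67.8 and 22.2 CPM in aversive and 27.8 CPM or more in mock libraries (adjusted p = 0.0184). Trpv4 was thus highest in neutral libraries, whereas Pkd2 was low in the appetitive libraries and at similar levels elsewhere.

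Genes of motile cilia were lower in appetitive cells. Of 37 listed 35 were tested, and 8 of these were lower and 0 higher, against 5.23% and 0.937% of all tested genes. Both appetitive libraries lay below every neutral library for 28 of the 35, as for 27.2% of all tested genes. In both appetitive libraries 27 of the 35 had 3 counts or fewer, as had 7706 of the 19754 genes in the fit. The median log2 fold change was -10.46, or -5.90 with genes at 0 set to their bound, against -0.91 and -0.42 over all tested genes. The list summed to 43.1 and 76.7 CPM in appetitive, 2231, 749 and 1885 CPM in neutral, 250.4 and 732 CPM in aversive and 106 to 395 CPM in mock libraries. Rsph9 (ENSMUSG00000023966, chromosome 17 from 46122035 to 46144216), a radial spoke protein of the axoneme, had 0 and 1 counts in the appetitive libraries and 284, 93.3 and 286 CPM in the neutral libraries, a ratio of 7051 (95% counting interval 1266 to 278519) (adjusted p = 0.00993), and overlaps Mrps18a on the other strand. Aversive libraries held 29 and 62.5 CPM and mock libraries 20.6 to 23 CPM, so only the appetitive libraries were near 0. Tekt1 (ENSMUSG00000020799, chromosome 11 from 72344722 to 72362442), a tektin filament protein of ciliary microtubules, was at 0 counts in both appetitive libraries, at least 635-fold below 210.5, 50.4 and 186 CPM in neutral libraries (adjusted p = 0.00993). It had 20.4 and 35.9 CPM in aversive and 6.85 to 17.8 CPM in mock libraries. Rsph1, another radial spoke protein, and Cfap44, a ciliary beat regulator, were also at 0 counts, at least 756-fold and 710.1-fold below neutral cells (adjusted p = 0.0111 and 0.0185). Spag6l, a central apparatus protein, had 0 and 1 counts in appetitive libraries and 0 and 0.301 CPM in aversive libraries against 85.2, 32.2 and 108 CPM in neutral libraries. Leaving out single libraries gave 3 to 20 lower members, with 4 without appetitive replicate 1.

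The promoters of called cilia genes are shown because ciliary genes are known targets of RFX transcription factors, which bind the X-box. The search used GTTGCC, an arm of the X-box, and its reverse complement GGCAAC on both strands of the 250 bases before each RefSeq start (GRCm38.p6). It was found for 3195 of 27025 genes with a promoter entry (11.8%), for 12 of 27 cilia genes with an entry (44.4%) and for 2 of the 6 called cilia genes with an entry. Bases past the annotated start of the gene were left out for Cfap44 and Rsph9. The Tekt1 window lies wholly inside the annotated span of the gene given above, and nothing was left out. Its matches are thus upstream of the RefSeq start used but not of the annotated gene. Capitals mark the matched letters:
Tekt1, chr11:72361883-72362132, minus strand: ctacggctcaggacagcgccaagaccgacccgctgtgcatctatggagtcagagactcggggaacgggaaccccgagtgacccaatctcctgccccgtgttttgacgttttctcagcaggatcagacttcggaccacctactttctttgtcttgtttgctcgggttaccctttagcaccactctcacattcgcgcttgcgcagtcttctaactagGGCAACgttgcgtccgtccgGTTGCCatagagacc
Cfap44, chr16:44394549-44394795, plus strand: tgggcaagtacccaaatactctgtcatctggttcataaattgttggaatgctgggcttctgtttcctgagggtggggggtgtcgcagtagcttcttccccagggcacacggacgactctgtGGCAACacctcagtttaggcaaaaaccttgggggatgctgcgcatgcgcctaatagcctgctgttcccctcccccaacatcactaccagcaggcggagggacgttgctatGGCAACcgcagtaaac
Rsph9, chr17:46144217-46144450, minus strand: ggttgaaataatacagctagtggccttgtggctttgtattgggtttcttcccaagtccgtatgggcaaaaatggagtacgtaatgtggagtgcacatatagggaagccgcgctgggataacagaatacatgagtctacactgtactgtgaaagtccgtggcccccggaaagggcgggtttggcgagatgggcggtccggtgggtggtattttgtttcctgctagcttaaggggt
Tekt1 and Cfap44 held 2 matches each and Rsph9 held 0 in the bases shown, although all 3 genes were lower in appetitive cells. Matches to 6 letters are a description of these windows, not of binding.

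Vascular and fibroblast markers gave 1 lower call per list, and in lists this small that is close to the 5.23% of all tested genes called lower. By order the lists differed. Without overlap 2 of 10 endothelial, 6 of 8 mural and 3 of 8 fibroblast markers lay lower, against 27.2% of all tested genes, and 1 fibroblast marker lay higher. Mural markers summed to 301 and 191 CPM in appetitive, 659, 6547 and 2771 CPM in neutral and 202 and 1138 CPM in aversive libraries. Tek, the angiopoietin receptor of endothelial cells, had 0.235 and 0.576 CPM in appetitive and 4.59, 135 and 117 CPM in neutral libraries (log2 fold change -7.69, SE 1.64, adjusted p = 0.0275), with 104 and 221 CPM in aversive and 60.6 to 223 CPM in mock libraries (1 of 10 endothelial markers). Myh11, smooth muscle myosin, had 2 and 3 counts against 78.2, 685 and 313 CPM (adjusted p = 0.0391), with 0.15 and 59.5 CPM in aversive and 8.76 to 141 CPM in mock libraries, and was 1 of 8 mural markers, whose median log2 fold change was -5.44, against -0.91 over all tested genes. Igf2, a growth factor of leptomeninges and choroid plexus, was at 0 counts in appetitive libraries, at least 281-fold below 119.6, 10.8 and 67.3 CPM (adjusted p = 0.0371), with 1.45 and 2.79 CPM in aversive and 0 to 1.62 CPM in mock libraries (1 of 8 fibroblast markers). Over single libraries left out the lower calls numbered 0 to 2 for endothelial, 0 to 4 for mural and 0 to 3 for fibroblast markers, and 0 in each without appetitive replicate 1. Oligodendrocyte precursor markers gave 0 calls of 7 and summed to 0.391 and 1.68 CPM in appetitive, 23.5, 124 and 54.5 CPM in neutral, 0.25 and 46.5 CPM in aversive and 43.8 to 114 CPM in mock libraries. Of 9 ependymal markers 1 had a log2 fold change above 0, and the median was -3.02. Without overlap 5 lay lower and 1 higher, against 27.2% and 11.4% of all tested genes. The calls were 1 each way, with Mia at 0 counts in appetitive libraries against 34.2, 15.2 and 40.9 CPM (adjusted p = 0.0237) and Tppp3, a tubulin polymerisation protein that oligodendrocytes also make, higher at 496 and 934 CPM against 63.2, 193 and 102 CPM (adjusted p = 0.0407).

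Several of the lower genes with the smallest p have roles in most cells, and were near 0 in the appetitive libraries alone. They were picked by their test and do not stand for such genes in general, since 15 common housekeeping genes had 0 calls and a median log2 fold change of 0.69, against -0.91 over all tested genes. Ppp4c (ENSMUSG00000030697, chromosome 7 from 126785866 to 126792496), the catalytic subunit of protein phosphatase 4, had 0.626 and 0.89 CPM in appetitive, 111, 142 and 112 CPM in neutral, 113 and 72.6 CPM in aversive and 41.1 to 69.6 CPM in mock libraries (log2 fold change against neutral cells -7.32, SE 0.99, adjusted p = 0.00993). It was the only 1 of 11 phosphatase catalytic subunits called, and the median log2 fold change of the list was 0.33. Without overlap 3 of the 11 lay lower and 2 higher, near the 27.2% and 11.4% of all tested genes. Adsl (ENSMUSG00000022407, chromosome 15 from 80948490 to 80970946), which acts in purine synthesis, had 1 and 1 counts in appetitive libraries and 95, 70.0 and 76.4 CPM in neutral libraries, a ratio of 1283 (95% counting interval 355 to 10591). Aversive libraries held 33.8 and 64 CPM and mock libraries 32.8 to 38.3 CPM. Of 12 purine synthesis genes 2 were lower and 1 higher, against 5.23% and 0.937% of all tested genes. The lower genes were Adsl and Ppat, the latter with 0 and 1 counts against 17.6, 6.04 and 21.7 CPM. The higher gene was Adssl1, the adenylosuccinate synthase isoform of muscle, at 209 and 600.0 CPM against 23.1, 82 and 26.6 CPM (adjusted p = 0.0452). Arf2 (ENSMUSG00000062421, chromosome 11 from 103966739 to 103985337), a small GTPase of Golgi transport, had 3 and 8 counts in appetitive libraries against 72.8, 73.6 and 61.3 CPM in neutral, 90.7 and 59.5 CPM in aversive and 50.1 to 78.7 CPM in mock libraries (adjusted p = 0.0102). It was the only 1 of 11 Arf and Sar genes called, where 4 lay lower and 3 higher without overlap (27.2% and 11.4% of all tested genes). Calls of 1 in 11 are close to the 5.23% over all tested genes, and over single libraries left out 1 to 3 phosphatase and 1 to 2 Arf and Sar genes were called lower.

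Taf6, a subunit of the TFIID complex that starts transcription, had 1 and 1 counts in appetitive libraries against 71.7, 63.4 and 60.5 CPM (adjusted p = 0.00996), with 55.8 and 33.2 CPM in aversive and 17.7 to 27.2 CPM in mock libraries, and was picked after its values were seen. Hemk1, a methyltransferase that modifies translation release factors, had 2 and 1 counts against 577, 155 and 435 CPM (adjusted p = 0.00993), and Rfng, a glycosyltransferase of Notch receptors, 1 and 1 counts against 151, 75.6 and 105 CPM. Aversive libraries held 56.8 and 31.7 CPM of Hemk1 and 27.6 and 35.5 CPM of Rfng, which lay between the compared groups. Sdf2l1, an endoplasmic reticulum chaperone component, had 2 and 2 counts against 236, 95.1 and 244 CPM, with 82.5 and 41.6 CPM in aversive and 20.5 to 37.4 CPM in mock libraries, and was the only 1 of 19 endoplasmic reticulum genes called. Psmd2, a subunit of the proteasome cap, was the only 1 of 31 proteasome genes called (3.23%, against 5.23% called lower over all tested genes), at 0.782 and 3.51 CPM against 72, 189 and 139.8 CPM (log2 fold change -5.95, SE 1.07, adjusted p = 0.0183). It had 55.7 and 28.3 CPM in aversive and 119.9 to 134 CPM in mock libraries. Pcolce, an enhancer of procollagen processing, had 1 and 1 counts against 398, 126 and 427 CPM (adjusted p = 0.00993) and 5.15 and 9.78 CPM in aversive and 8.96 to 17.4 CPM in mock libraries. Calml4, a calmodulin-like protein, was at 0 counts in appetitive libraries, at least 1618-fold below 581, 98.6 and 459 CPM (adjusted p = 0.00993). Aversive libraries held 43.5 and 25.6 CPM and mock libraries 9.64 to 29.8 CPM.

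**Figure D4:**
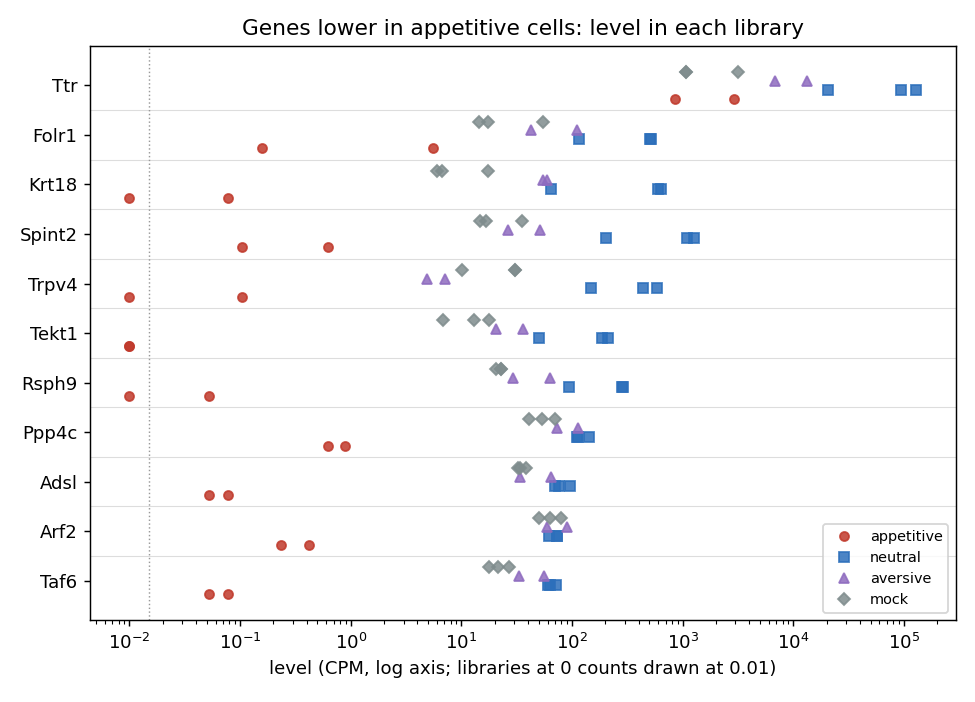
Points are the level of 11 genes in each library (CPM on a log axis), marked by group, with libraries at 0 counts drawn at 0.01. Ppp4c, Adsl, Arf2 and Taf6 lie under 1 CPM in both appetitive libraries and above 10 CPM in all other libraries, while Ttr and Trpv4 are highest in the neutral libraries.

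Absence of genes that the other libraries hold was common in the appetitive libraries. Of 4676 genes at 20 CPM or more in every neutral library, 977 (20.9%) had 3 counts or fewer in appetitive replicate 1, 596 (12.7%) in appetitive replicate 2 and 320 (6.84%) in both. The same count was 260 in aversive replicate 1, 54 in aversive replicate 3 and 0 to 9 in mock libraries. Duplicate reads from PCR could not be recognised, and floors and intervals cover counting error only. The share of genes called lower was larger at higher levels in neutral cells, from 0% in both of the lowest of 5 equal bins of genes to 3.32%, 13.0% and 9.85% in the higher bins. It was 1.42% in the bin with the shortest exons and 6.72% in that with the longest, and 3.57% in the bin of lowest and 6.87% in that of highest GC content. The part of depth, length, GC content and kit in the calls was not tested.

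**Figure D5:**
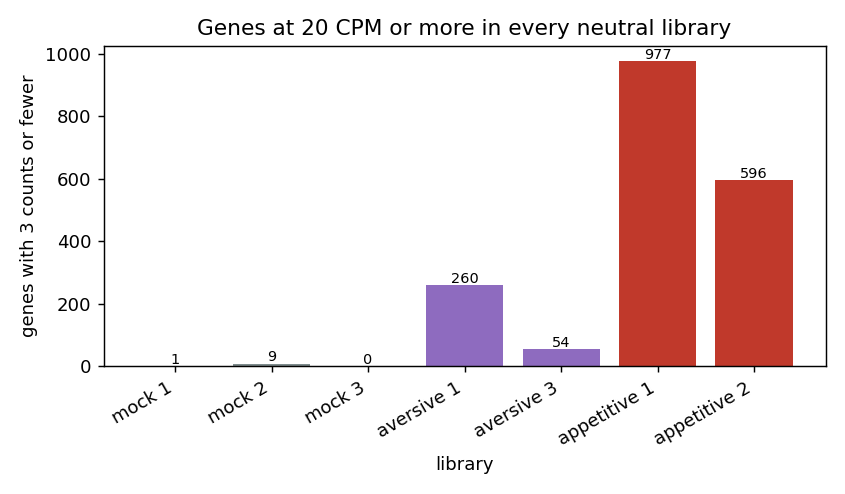
Bars give, for each appetitive, aversive and mock library, how many of 4676 genes at 20 CPM or more in all neutral libraries had 3 counts or fewer. The appetitive bars stand at 977 and 596 and no other bar exceeds 260.

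Several gene groups showed no calls. Transfer RNA synthetases (20 tested), RNA polymerase II subunits (12), cytosolic ribosomal protein genes (92), mitochondrially encoded genes (7), interferon response genes (15), glucocorticoid response genes (9), nuclear long noncoding RNAs (8), common housekeeping genes (15), interneuron markers (8) and red blood cell markers (5) had 0 members called in either direction. Their median log2 fold changes ran from -2.34 for interneuron markers and -1.71 for glucocorticoid response genes to 0.77 for ribosomal proteins and 3.49 for red blood cell markers. With genes at 0 set to their bound the interneuron median was 0. In both appetitive libraries 5 of the 8 interneuron markers had 3 counts or fewer. With 5.23% of all tested genes called lower, 0 calls in lists of 20 or fewer is close to the overall share, and up to 6 synthetases were called lower when a library was left out. The 0 of 92 ribosomal protein genes lay below the 5.23% called lower over all tested genes. So did the respiratory chain genes, at 0.952%. Of 105 respiratory chain genes the only call was Ndufa4l2, lower at 0 and 1 counts against 4.75, 142 and 26 CPM (adjusted p = 0.0288). Cholesterol synthesis gave 1 call each way, Lss at 0 and 1 counts against 29.2, 31.2 and 29.3 CPM and Msmo1 at 529 and 697 CPM against 106, 150.3 and 96.7 CPM. Aversive libraries held 0.3 and 5.01 CPM of Lss and 729 and 629 CPM of Msmo1.

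The direct comparison of the appetitive with the aversive and mock libraries, which share their kit, called 23 genes higher (0.116%) and 333 lower (1.69%) against aversive cells, and 4 higher (0.0202%) and 387 lower (1.96%) against mock cells. These comparisons use the same appetitive libraries as the one with neutral cells. Ppp4c, Adsl, Arf2 and Rsph9 were lower against all 3 groups, with adjusted p = 0.024, 0.024, 0.024 and 0.024 against aversive and 0.0296, 0.0296, 0.0296 and 0.0296 against mock cells. Slc1a2, Ccl4 and Ttr did not pass against aversive cells (adjusted p = 0.57, 1 and 0.192) or mock cells (adjusted p = 0.956, 0.425 and 0.958).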

How the data were processed

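RNA-seq counts of 53379 genes per library were deposited by the authors without normalization. By the study's methods and the labels, the first 40 bp of each read were mapped with STAR to mm10 (GRCm38) and counted without strand with featureCounts of the Subread package. Positions came from GENCODE M21, to which 53274 identifiers were matched. Libraries were grouped by their titles. Total counts ran from 16968588 to 67650693, and 3 counts, the floor, were 0.0346 to 0.235 CPM. Counts were fitted with edgeR 4.0.16 in R 4.3.3 (TMM, filterByExpr, quasi-likelihood F test, 4 groups, 10 libraries, Benjamini-Hochberg, two-sided). DESeq2 1.42.0 was an alternative, and the others were scaling, filters, libraries in the fit, the replicate number as a block and single libraries left out. On simulated counts with 64-fold changes in 200 genes, tested for this comparison on 18902 genes, edgeR called 89 changed and 5 unchanged genes. The changed genes differed between the appetitive and all other groups, and no gene differed in the neutral libraries alone. The simulation thus does not cover genes set apart in the neutral libraries or by kit. Where a group was at 0 counts the fold is a lower bound against the floor. For some genes where it held 1 to 20 counts a ratio with an exact Poisson interval is given instead. For others, among them Perp, Spint2 and Tek, the fitted log2 fold change is given without a counting interval. SE values came from the F statistics. Genes named were the 10 with the smallest p in each direction without overlap, the 4 with the smallest p and the first 3 of each list, and the study's leading genes. Ccl7, Ndufa4l2, Otx2, S100b and Taf6 were named after their values were seen. Some genes under this rule are not reported here. The 44 lists and the members were chosen with earlier results of these data known. Promoters came from RefSeq (GRCm38.p6).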

Additional observations from a re-analysis of the deposited data

Results flagged for a closer look

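For 19 of the genes named, the difference of appetitive cells from neutral cells and that of aversive cells from the same neutral cells were themselves different, which in this fit is the test of appetitive against aversive libraries (edgeR, adjusted p under 0.05, 2 libraries each). In each of them both appetitive libraries lay below both aversive libraries. The appetitive minus aversive log2 fold change was -8.76 for Hemk1, -6.81 for Pcolce, -8.88 for Sdf2l1, -8.43 for Perp, -8.88 for Rfng, -6.77 for Spint2 and -10.61 for Krt18. It was -9.52 for Adsl, -6.93 for Ppp4c, -9.38 for Taf6 and -7.82 for Arf2. The channel genes Trpv4 and Pkd2 had -6.59 and -9.54, the vesicle fusion gene Stx1a -9.06, and Tek -8.62. Rsph9 had -10.45. Calml4, Tekt1 and Rsph1 had 0 counts in both appetitive libraries, so their fitted values of -13.59, -13.29 and -14.81 depend on the prior count and are no bounds. Hemk1, Pcolce, Sdf2l1, Perp, Rfng, Krt18, Adsl, Taf6, Trpv4, Pkd2, Stx1a and Rsph9 had very few counts in the appetitive libraries, so the size of their fitted values is poorly determined. The test shares the appetitive libraries with the comparison reported above, by which many of these genes were picked. Over all tested genes 1.69% were called lower against aversive cells, and the 19 do not stand for genes in general.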

How the results depend on the processing

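The 1218 calls and the gene-list members among them depended on the fit. Without a filter on low counts 2535 genes were called (157 of them list members), 117 at the threshold of the study, with a median log2 fold change of 0. With at least 10 counts in every library 160 were called (14 list members), with a median of 0.038. DESeq2 called 6039 (210 list members; 1333 at the threshold of the study; median 0) on 10 libraries and 4597 (146 list members; 589; median -0.16) on the 5 compared libraries. Medians were -0.63 with DESeq2's size factors in edgeR and -1.45 with library size alone, and the share of higher among all calls was 15.2%, 21.2% and 7.07% with TMM, these factors and library size. The 5 compared libraries alone and the 7 tagged libraries each gave 0 calls and 0 list members.

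No label ties a replicate number to a batch. The deviations of same-numbered appetitive and neutral libraries from their group means correlated at -0.0371 and -0.0011. With 2 appetitive libraries the deviations mirror each other, so these values cannot decide if replicate numbers pair the libraries. With the replicate number as a block 0 genes (0 list members, median -2.55) were called on 5 libraries, where 776 had an unadjusted p under 0.05, and 73 (18 list members, median -1.14) on 10.

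Leaving out single libraries gave 67 to 2661 calls, 16 to 117 list members and medians of -3.42 to -0.56. Calls numbered 232, 231 and 270 without mock replicates 1, 2 and 3, 2621 and 2661 without aversive replicates 1 and 3, 1097 and 2208 without appetitive replicates 1 and 2, and 381, 777 and 67 without neutral replicates 1, 2 and 3. Of 64 called genes named, 22 were called in each of the 10 fits that leave out a library (Adsl, Arf2, Calml4, Ccl3, Ccl4, Ccl12, F3, Hemk1, Krt18, Pcolce, Perp, Ppp4c, Rfng, Rsph1, Rsph9, Scg3, Sdf2l1, Slc1a2, Spint2, Taf6, Tekt1 and Trpv4), and 42 were lost without neutral replicate 3, 21 without appetitive replicate 1 and 27 to 29 without a mock replicate. The log2 fold change of Mbp ran from -0.27 without appetitive replicate 1, where its direction reversed, to 5.95 without appetitive replicate 2. The neutral kit and sequencer cannot be told apart from the neutral experience. Of genes at the lowest levels in neutral cells 0% were called lower, and a miss does not show equal levels.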
